A study of Mus musculus with 15 samples.

Results

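The calprotectin and neutrophil marker genes described here are *S100a8*, *S100a9*, *Retnlg*, *Clec4d*, *Clec4e*, *Csf3r*, *Cxcr2* and *Trem1*, 8 of the 32544 genes in the count table, taken by symbol. They were read in total RNA of mouse colon from 6 groups, made of 3 *Tert* genotypes with and without dextran sulfate sodium (DSS), a polymer in drinking water that injures the colonic epithelium and sets off colitis. The labels name wild type (WT, TERT+/+), a knockout (KO, TERT-/-) and TERTVAA (VAA), a knock-in allele that by the series description makes an enzymatically dead protein. Each genotype had 2 untreated and 3 DSS libraries. The mice were 8 to 12 weeks old. DSS groups drank 3% DSS for 4 days and plain water for another 4, and colon was collected on day 8. No other allele or agent is named in the labels.

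Neutrophils are short-lived granulocytes that leave the blood for injured mucosa. *S100a8* and *S100a9* encode the subunits of calprotectin, a calcium- and metal-binding protein that fills the neutrophil cytoplasm and is measured in stool as a sign of gut inflammation. *Retnlg* encodes resistin-like gamma, a secreted protein of rodent granulocytes. *Clec4d* and *Clec4e* (Mincle) encode C-type lectin receptors for microbial glycolipids and dead cells. *Csf3r* encodes the receptor for granulocyte colony-stimulating factor, *Cxcr2* the receptor for neutrophil-attracting CXC chemokines, and *Trem1* a receptor that amplifies innate inflammatory signals. Monocytes, macrophages and stressed epithelium can also make several of these transcripts.

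Library totals ran from 10.6 to 17.5 M estimated counts, and 17477 genes passed the expression filter and were tested. *Tert*, read as a check of the labels, had 23 to 40 counts in WT libraries, 7 to 29 in VAA libraries and 0 to 1 in KO libraries. Its KO level under DSS was 1.25% of WT (95% counting interval 0.0314 to 7.18), with an edgeR adjusted *P* of 0.0019. VAA DSS replicate 3 stood apart as the shallowest library, and 35 genes with identical rows took 13.6% of its counts, against at most 9.67% elsewhere. WT untreated replicate 2 and KO untreated replicate 2 were male by the Y-linked gene *Ddx3y*, and the other 13 libraries were female. The labels do not state that replicates are separate animals. The replicates of untreated WT and of untreated KO differ in sex and so came from different animals, while in the other 4 groups the spread that *P* values rest on may be technical.

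The windows just before the transcription starts of 5 of the genes are printed here. Of these, 4 (*S100a8*, *S100a9*, *Retnlg* and *Clec4e*) rose under DSS in WT and VAA and were lower in KO, and *Cxcr2* had the smallest differences. *Clec4d*, *Csf3r* and *Trem1* also rose in WT and VAA and were lower in KO, and their windows are not printed. Sequences are from RefSeq on GRCm38.p6, read 5′ to 3′ on the gene's strand and ending before the first annotated transcript base. Capitals mark matches, on either strand, to the motif letters searched.
S100a8 (chr3:90668821-90668977, plus strand): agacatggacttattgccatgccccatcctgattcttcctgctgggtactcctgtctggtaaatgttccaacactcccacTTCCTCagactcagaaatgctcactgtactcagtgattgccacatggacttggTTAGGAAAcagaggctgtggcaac
S100a9 (chr3:90695722-90695971, minus strand): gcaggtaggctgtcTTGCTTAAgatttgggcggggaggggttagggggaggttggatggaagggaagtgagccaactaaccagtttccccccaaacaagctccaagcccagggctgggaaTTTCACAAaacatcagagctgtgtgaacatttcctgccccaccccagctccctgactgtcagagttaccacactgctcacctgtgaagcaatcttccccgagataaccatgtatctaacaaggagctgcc
Retnlg (chr16:48872358-48872607, plus strand): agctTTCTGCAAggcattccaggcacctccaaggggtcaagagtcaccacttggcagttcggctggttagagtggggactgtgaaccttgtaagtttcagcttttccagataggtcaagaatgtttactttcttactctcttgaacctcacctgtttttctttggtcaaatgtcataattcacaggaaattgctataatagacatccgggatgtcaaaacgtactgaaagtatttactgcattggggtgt
Clec4e (chr6:123289872-123290121, minus strand): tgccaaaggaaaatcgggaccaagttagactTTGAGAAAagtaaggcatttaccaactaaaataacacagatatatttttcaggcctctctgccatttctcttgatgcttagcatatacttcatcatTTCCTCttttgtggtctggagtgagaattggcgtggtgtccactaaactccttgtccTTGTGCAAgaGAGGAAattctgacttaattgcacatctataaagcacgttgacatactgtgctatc
Cxcr2 (chr1:74153744-74153988, plus strand): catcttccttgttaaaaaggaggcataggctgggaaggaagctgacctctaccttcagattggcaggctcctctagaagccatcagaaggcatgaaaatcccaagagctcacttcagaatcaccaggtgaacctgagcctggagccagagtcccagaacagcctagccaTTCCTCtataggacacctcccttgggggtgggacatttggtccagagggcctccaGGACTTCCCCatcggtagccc

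In the 250 bases before the RefSeq start, the C/EBP letters TTNNGNAA were found for 6 of the 8 genes, the exceptions being *Csf3r* and *Cxcr2*. The same letters were found in 36.8% of 32807 promoters of that length. The PU.1 letters GAGGAA were found for 6 of the 8 genes, without *S100a9* and *Retnlg*, and in 23.3% of all promoters. The NF-kappaB letters (GGG, 5 free bases, CC) were found for *Csf3r* and *Cxcr2* alone among the 8 and in 45.8% of all promoters. The AP-1 letters TGANTCA were found for 0 of the 8 genes (6.75% of all promoters), and the STAT letters TTCNNNGAA for *Trem1* alone (7.02%), where they end next to a PU.1 match. A match describes letters in a window and is not a measured binding site.

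DSS raised most of these transcripts in WT and VAA colon. In WT, 7 of the 8 genes rose under DSS, where 14.1% of all genes tested rose. In VAA, 8 of 8 rose, against 10.9% of all genes. In KO, 5 of 8 rose, against 5.59% of all genes. Calls here are from edgeR's quasi-likelihood test, with *P* adjusted by Benjamini-Hochberg over the 17477 genes and a threshold of 0.05. The median log2 difference of the 8 genes was 4.88 in WT, 6.43 in VAA and 2.29 in KO. Counting groups with at most 3 counts as 3 counts, the medians were 4.88, 5.74 and 2.29. The median over all genes tested was -0.01, 0.06 and 0.00 in the same order. The shares of all genes that rose varied with single libraries. In WT the share was 4.69% and 5.95% without untreated replicates 1 and 2 and 8.57% without DSS replicate 2, and in VAA 4.94% and 5.69% without untreated replicates 1 and 2. In KO it was 1.01% and 2.25% without untreated replicates 1 and 2, 3.37%, 3.09% and 3.02% without DSS replicates 1, 2 and 3, and 10.8% without VAA DSS replicate 3. All 8 genes passed the expression filter, some of them through their DSS libraries only, so these counts describe the set and do not test it.

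**Figure D1:**
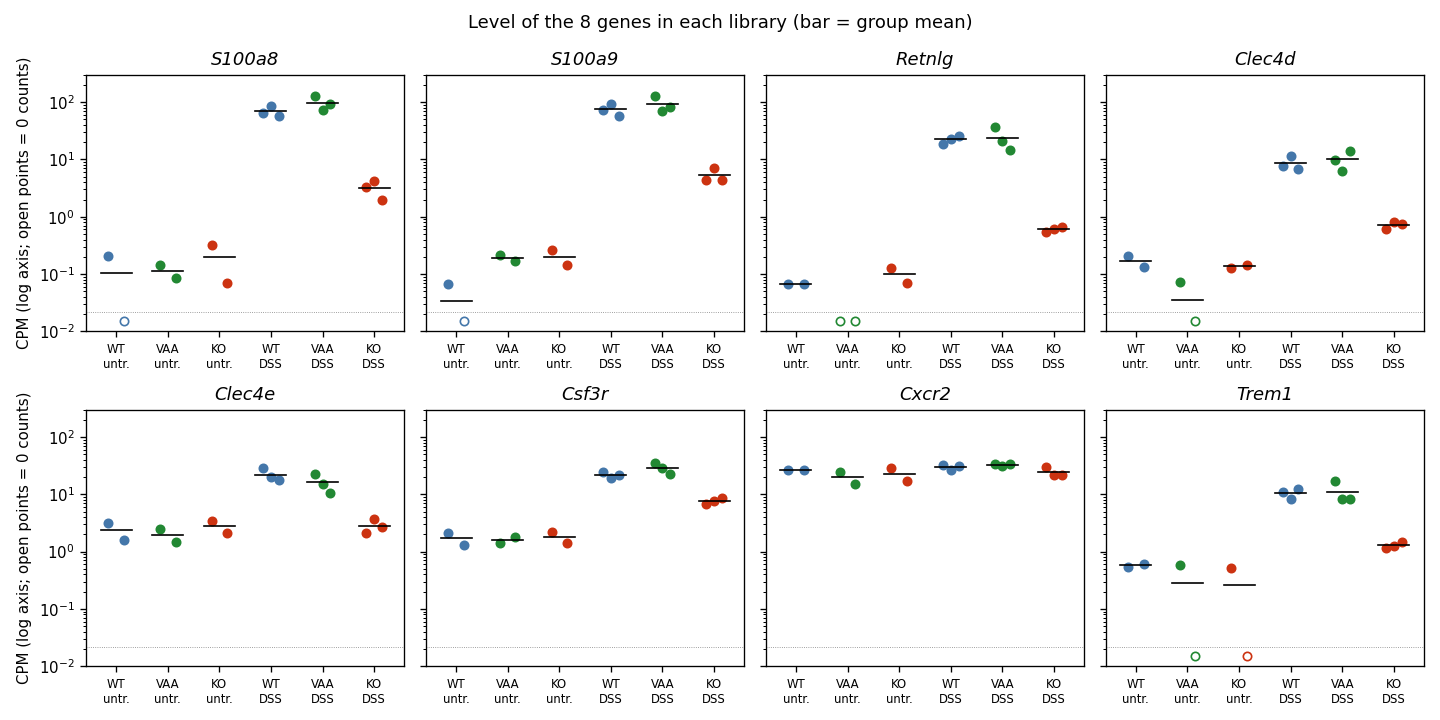
Level of each gene in each of the 15 libraries, in CPM (counts per 1 M of the scaled library total), on a log axis; bars are group means and open points at the foot of a panel are libraries with 0 counts. For 7 genes, and for 7.9% of all genes tested, every KO DSS library lies below every WT and VAA DSS library, while *Cxcr2* lies between 15.2 and 33.4 CPM in every library.

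The calprotectin genes were nearly silent in untreated colon and abundant under DSS in WT and VAA. *S100a8* (ENSMUSG00000056054.9, chromosome 3, 90668978 to 90670035, plus strand of mm10) had 3 and 0 counts in untreated WT, 2 and 1 in untreated VAA, and 5 and 1 in untreated KO. Under DSS it had 884, 1126 and 972 counts in WT, 2119, 1249 and 954 in VAA, and 43, 61 and 26 in KO. Every DSS library was thus above every untreated one, and every KO DSS library was far below every WT and VAA DSS library. In CPM the DSS levels of *S100a8* were 69.3 ± 15.1 (SD, n = 3) in WT, 97.1 ± 28.1 in VAA and 3.14 ± 1.13 in KO. The DSS to untreated ratio of scaled counts was 671 (95% counting interval 229 to 3250) in WT, 836 (286 to 4050) in VAA and 15.6 (6.97 to 43.2) in KO. These intervals cover counting error only.

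*S100a8* was lower in KO than in WT under DSS by a log2 difference of -4.45 ± 0.33 (approximate SE, derived from the test statistic). Its KO level was 4.56% of the WT level, with an edgeR adjusted *P* of 2.8e-05. For genes with few counts this SE can be smaller than counting error alone. Against VAA the log2 difference was -4.94 ± 0.34, with an edgeR adjusted *P* of 1.4e-05. The comparisons of KO with WT and with VAA share the 3 KO DSS libraries. In bulk tissue, fewer cells of a type and less RNA per cell cannot be told apart, here or for any gene that follows.

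*S100a9* (ENSMUSG00000056071.12, chromosome 3, 90692632 to 90695721, minus strand) lies 22.6 kb from *S100a8*, with 0 annotated genes between them. Its untreated counts were 1 and 0 in WT, 3 and 2 in VAA, and 4 and 2 in KO. Under DSS it had 1006, 1202 and 984 counts in WT, 2098, 1197 and 856 in VAA, and 57, 105 and 59 in KO. As for *S100a8*, KO overlapped neither other genotype under DSS, while WT and VAA overlapped. The DSS to untreated ratio of *S100a9* was 2150 (386 to 85100) in WT, where untreated colon held 1 count, 482 (206 to 1480) in VAA and 26.5 (12.0 to 72.9) in KO. Under DSS the log2 difference of *S100a9* was -3.80 ± 0.28 for KO against WT (7.19% of WT, edgeR adjusted *P* = 2.8e-05). For KO against VAA it was -4.11 ± 0.28 (edgeR adjusted *P* = 1.4e-05).

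The share of *S100a8* in the pair was compared after the values were seen. *S100a8* made up 46.8%, 48.4% and 49.7% of the summed *S100a8* and *S100a9* counts in the WT DSS libraries and 50.2%, 51.1% and 52.7% in the VAA DSS libraries. In KO DSS libraries it made up 43.0% (Wilson 95% interval 33.7 to 52.8), 36.7% (29.8 to 44.3) and 30.6% (21.8 to 41.0). The 3 KO libraries were below the 6 others. The mean share was 36.8% ± 6.20 (SD, n = 3) in KO, 48.3% ± 1.45 in WT and 51.3% ± 1.27 in VAA. Each of the 3 pairs gave a two-sided exact permutation *P* of 0.1, the smallest that 3 against 3 libraries allow, and 0.1 after adjustment over the pairs. The difference therefore could not pass a threshold of 0.05.

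**Figure D2:**
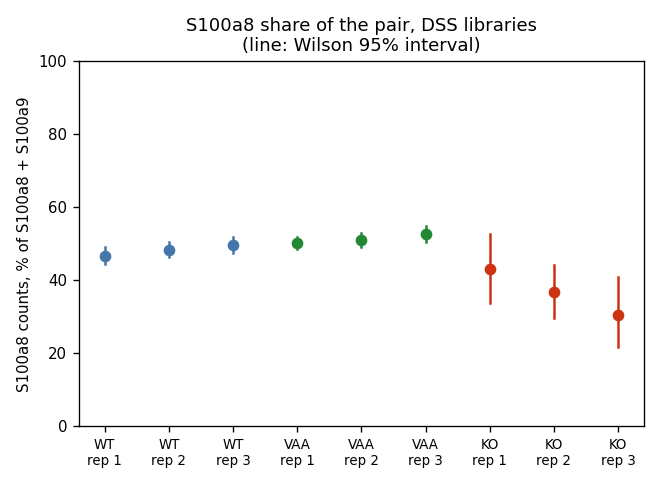
Share of *S100a8* in the summed counts of *S100a8* and *S100a9* in each DSS library, in percent, with Wilson 95% intervals for counting error. KO libraries lie at 30.6% to 43.0% and the others at 46.8% to 52.7%.

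*Retnlg* (ENSMUSG00000022651.6, chromosome 16, 48872621 to 48874496, plus strand) had the largest KO deficit of the 8 genes. It had 1 and 1 counts in untreated WT, 0 and 0 in untreated VAA, and 2 and 1 in untreated KO. Under DSS it had 253, 297 and 436 counts in WT, 606, 360 and 155 in VAA, and 7, 9 and 9 in KO. KO DSS libraries were above untreated ones and far below the other DSS libraries. The DSS to untreated ratio of *Retnlg* was 333 (91.8 to 2750) in WT and 5.99 (1.83 to 31.0) in KO. In VAA, with 0 untreated counts, it was at least 217-fold higher, taking 3 counts over the group as the floor. Under DSS the KO level of *Retnlg* was 2.77% of WT, a log2 difference of -5.18 ± 0.36 (edgeR adjusted *P* = 2.8e-05). Against VAA the log2 difference was -5.29 ± 0.36 (edgeR adjusted *P* = 2.2e-05).

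The lectin receptor genes *Clec4d* and *Clec4e* lie 6.5 kb apart with 0 annotated genes between them, and they differed in their untreated level. *Clec4d* (ENSMUSG00000030144.4, chromosome 6, 123262111 to 123275265, plus strand) had 3 and 2 counts in untreated WT, 1 and 0 in VAA, and 2 and 2 in KO. *Clec4e* (ENSMUSG00000030142.10, chromosome 6, 123281789 to 123289870, minus strand) had 46 and 24 in WT, 35 and 17 in VAA, and 53 and 29 in KO. Thus untreated colon of every genotype held *Clec4e* transcripts and nearly none of *Clec4d*.

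Under DSS, *Clec4d* had 105, 148 and 114 counts in WT, 163, 108 and 145 in VAA, and 8, 12 and 10 in KO. *Clec4e* had 390, 265 and 295 in WT, 376, 264 and 110 in VAA, and 27, 54 and 36 in KO. For *Clec4e* the KO DSS libraries, at 2.09 to 3.68 CPM, overlapped the untreated KO libraries, at 2.07 to 3.43 CPM. The DSS to untreated log2 difference of *Clec4e* was 3.21 ± 0.44 in WT, 3.02 ± 0.44 in VAA and 0.04 ± 0.42 in KO, with edgeR adjusted *P* of 0.00025, 0.00041 and 0.97. The sign in KO was negative under limma, with sex as a covariate and without KO untreated replicate 2 or KO DSS replicate 2. *Clec4d* rose by 5.59 ± 0.52 log2 units in WT (edgeR adjusted *P* = 2.3e-05) and by 2.35 ± 0.62 in KO (edgeR adjusted *P* = 0.031). With few untreated counts, its ratios had wide counting intervals, at 49.5 (21 to 153) in WT and 5.39 (1.9 to 21.1) in KO. Its VAA ratio was 241 (43.1 to 9560) over 1 untreated count. Under DSS, KO against WT gave a log2 difference of -3.54 ± 0.37 for *Clec4d* (8.62% of WT, edgeR adjusted *P* = 0.00051) and -2.96 ± 0.37 for *Clec4e* (12.9% of WT, edgeR adjusted *P* = 0.0017). Against VAA the values were -3.75 ± 0.37 and -2.52 ± 0.36, with edgeR adjusted *P* of 0.00018 and 0.0012.

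The receptors for the growth factor and for the chemokines of neutrophils did not move alike. *Csf3r* (ENSMUSG00000028859.14, chromosome 4, 126024550 to 126044440, plus strand) had 31 and 19 counts in untreated WT, 20 and 21 in VAA, and 34 and 20 in KO. Under DSS it had 340, 250 and 362 counts in WT, 588, 506 and 234 in VAA, and 87, 113 and 116 in KO. *Csf3r* rose in each genotype, by 3.67 ± 0.30 log2 units in WT, 4.17 ± 0.31 in VAA and 2.07 ± 0.29 in KO, with edgeR adjusted *P* of 8.6e-06, 3.6e-06 and 0.00098. Its KO level under DSS was 35.4% of WT, a log2 difference of -1.50 ± 0.22 (edgeR adjusted *P* = 0.004). Against VAA the log2 difference was -1.92 ± 0.22 (edgeR adjusted *P* = 0.00048). Among the 7 genes that were lower in KO, *Csf3r* had the smallest deficit.

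*Cxcr2* (ENSMUSG00000026180.8, chromosome 1, 74153989 to 74161246, plus strand) was abundant in untreated colon, with 386 and 389 counts in WT, 339 and 179 in VAA, and 440 and 240 in KO. Under DSS it had 436, 352 and 518 counts in WT, 554, 541 and 348 in VAA, and 381, 317 and 296 in KO. In CPM the DSS levels were 29.8 ± 2.50 in WT, 32.7 ± 1.21 in VAA and 24.4 ± 4.47 in KO, close to the untreated levels of 26.3, 19.7 and 22.8. *Cxcr2* rose under DSS in VAA alone, by 0.72 ± 0.23 log2 units (edgeR adjusted *P* = 0.041). With only the groups compared in the fit it was not called (0.72, edgeR adjusted *P* = 0.15). That call was lost without any one of WT untreated replicates 1 and 2, VAA untreated replicate 2, WT DSS replicates 1, 2 and 3, VAA DSS replicates 1 and 2 or KO DSS replicate 3, and the log2 difference without VAA untreated replicate 2 was 0.43. In WT it was 0.18 ± 0.23 and in KO 0.10 ± 0.23, with edgeR adjusted *P* of 0.58 and 0.83. Both signs turned with sex as a covariate, and the KO sign also under limma and without KO untreated replicate 2 or KO DSS replicate 1. The KO DSS libraries of *Cxcr2* overlapped those of WT (-0.29 ± 0.20, edgeR adjusted *P* = 0.44). They lay below those of VAA without passing the test (-0.42 ± 0.20, edgeR adjusted *P* = 0.19). Which cells held *Cxcr2* transcripts was not tested.

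*Trem1* (ENSMUSG00000042265.13, chromosome 17, 48232768 to 48246924, plus strand) overlaps an annotated gene on the other strand, AC241601.2, and the labels and processing notes used here do not say whether counting used strand. It had 8 and 9 counts in untreated WT, 8 and 0 in VAA, and 8 and 0 in KO. Under DSS it had 149, 110 and 209 counts in WT, 278, 143 and 86 in VAA, and 15, 18 and 20 in KO. KO DSS libraries lay above the untreated ones and below all other DSS libraries. *Trem1* rose by 4.17 ± 0.70 log2 units in WT (edgeR adjusted *P* = 0.001) and by 5.15 ± 0.78 in VAA (edgeR adjusted *P* = 0.00048). In KO the difference was 2.23 ± 0.83 (edgeR adjusted *P* = 0.1), while DESeq2 called it at an adjusted *P* of 0.013. Under DSS, KO against WT gave -3.02 ± 0.54 (12.3% of WT, edgeR adjusted *P* = 0.0099) and KO against VAA -3.10 ± 0.54 (edgeR adjusted *P* = 0.0034). Without KO DSS replicate 1 the first of these was -2.95, with an edgeR adjusted *P* of 0.052.

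**Figure D3:**
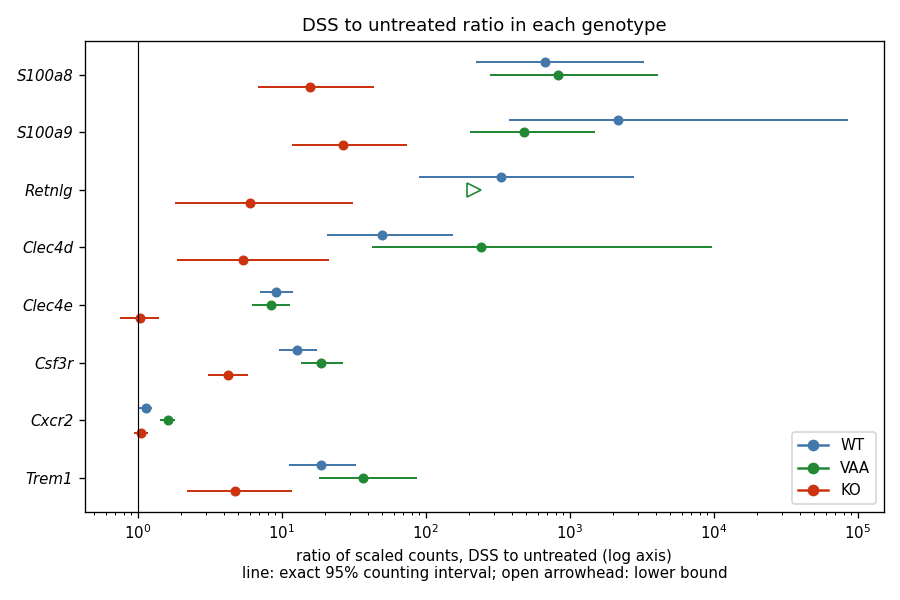
Ratio of scaled counts in DSS to untreated libraries for each gene and genotype, on a log axis, with exact 95% counting intervals; the open arrowhead is the lower bound for *Retnlg* in VAA. KO ratios run from 1.03 for *Clec4e* to 26.5 for *S100a9*, and WT ratios from 1.14 for *Cxcr2* to 2150 for *S100a9*.

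The KO response rested on few counts for some genes. The 5 genes that rose in KO were *S100a8* (3.90 ± 0.63 log2 units, edgeR adjusted *P* = 0.0025), *S100a9* (4.66 ± 0.53, edgeR adjusted *P* = 0.00032), *Csf3r*, *Clec4d* and *Retnlg* (edgeR adjusted *P* = 0.042). Without any one of KO untreated replicates 1 and 2 and KO DSS replicates 1, 2 and 3, only 3 genes were called, and *Retnlg* and *Clec4d* were the ones lost. *Retnlg* was also lost without WT untreated replicate 1 or 2 or WT DSS replicate 2. With sex as a covariate the count was likewise 3, where 4.02% of all genes rose. By DESeq2 it was 6, where 7.36% of all genes rose.

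Under DSS, 7 of the 8 genes were lower in KO than in WT, where 2.46% of all genes tested were lower, and *Cxcr2* was the one not called. The same number, 7, were lower in KO than in VAA, where 9.41% of all genes were lower. The median log2 difference of the 8 genes was -3.28 against WT and -3.42 against VAA, beside -0.01 and -0.01 over all genes. The share of all genes that were lower in KO than in WT was 0.734% and 0.453% without WT DSS replicates 1 and 2, 1.51% and 1.49% without WT untreated replicates 1 and 2, and 0.59%, 0.815% and 0.969% without KO DSS replicates 1, 2 and 3. It was 8.7% without VAA DSS replicate 3. The share lower in KO than in VAA was 4.85%, 4.03% and 5.68% without KO DSS replicates 1, 2 and 3. Without VAA DSS replicate 3 the count of the 8 genes against VAA was again 7, and 8 of 8 rose under DSS in VAA. VAA against WT under DSS gave 0 of 8 calls in edgeR, DESeq2 and limma, with 0 of the 8 at an unadjusted *P* under 0.05 in edgeR. Of all genes, edgeR called 0.00572%, or 1 of 17477, DESeq2 0.206% and limma 0.0057%. Without VAA DSS replicate 2 edgeR called 848 of 17426 genes, or 4.87%, between VAA and WT and 0 of the 8. Without WT DSS replicate 1 it called 3 genes in all, and without WT DSS replicate 2 or 3 or VAA DSS replicate 1 it called 0. The VAA minus WT log2 differences ran from -0.44 ± 0.33 for *Clec4e* to 0.49 ± 0.27 for *S100a8*, with edgeR adjusted *P* of 0.48 and 0.36. VAA and WT DSS libraries overlapped for each of the 8 genes, and *Csf3r* had the smallest unadjusted *P*, 0.0704, with a difference of 0.42 ± 0.21.

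**Figure D4:**
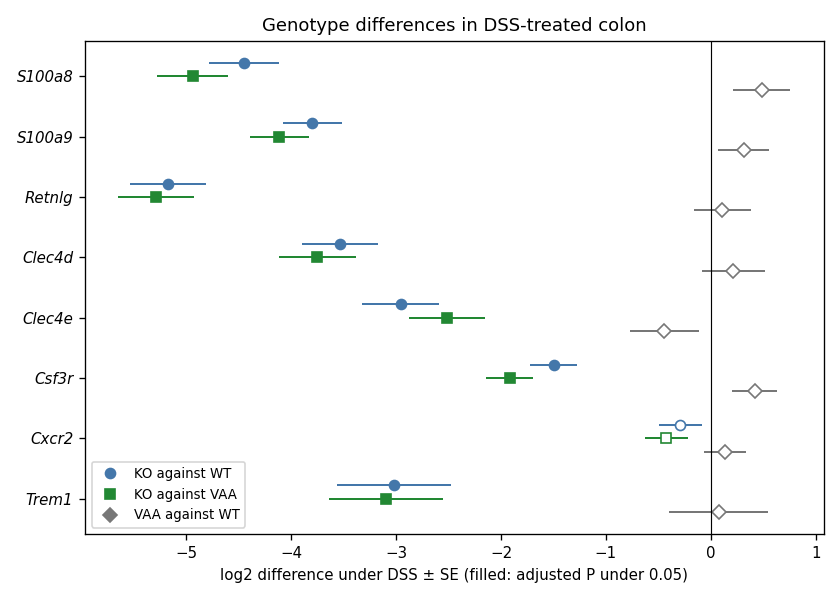
Log2 difference between genotypes under DSS for each gene, with an approximate standard error derived from edgeR's test statistic. Filled symbols passed an adjusted *P* of 0.05. KO differences run from -5.29 to -1.50 for the 7 called genes, and the VAA minus WT differences lie between -0.44 and 0.49.

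Without DSS, KO against WT, KO against VAA and VAA against WT each gave 0 of 8 calls in edgeR, where 0% of all genes were called. In edgeR 0 of the 8 had an unadjusted *P* under 0.05 in each of these comparisons. DESeq2 and limma also made 0 calls among the 8. Of all genes, DESeq2 called 0.0515%, 0.0172% and 0.0114% in the same order, and limma 0.0057%, 0% and 0%. With 2 libraries a group and 0 to 5 untreated counts for *S100a8*, *S100a9*, *Retnlg* and *Clec4d*, untreated genotype differences of these 4 genes were not detectable at this depth.

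Whether the DSS response itself differed between genotypes was tested by an interaction term. In the KO against WT interaction 0 of 8 genes were called in edgeR, where 0% of all genes were called, although 6 had an unadjusted *P* under 0.05. DESeq2 called 5 of the 8, where it called 0.79% of all genes. On the deposited log2 values limma called 3, where it called 0.0513% of all genes. The difference in response was -3.17 ± 0.59 log2 units for *Clec4e* (edgeR adjusted *P* = 0.2), -1.60 ± 0.40 for *Csf3r* (0.26) and -0.08 ± 0.32 for *Cxcr2* (0.96). In the KO against VAA interaction 0 of 8 genes were called, where 0.0687% of all genes were called, with 7 at an unadjusted *P* under 0.05. For *Clec4e* the difference was -2.98 ± 0.60 (edgeR adjusted *P* = 0.071) and for *Csf3r* -2.10 ± 0.41 (edgeR adjusted *P* = 0.068). Here DESeq2 and limma each called 6, where they called 3.08% and 0.656% of all genes. Without an expression filter edgeR called 3, where it called 0.437% of all genes. With the filter, edgeR called 6 without VAA DSS replicate 2 and 3 without VAA DSS replicate 3. The shares of all genes called in those 2 fits were 4.8% and 0.507%, and in the fits without 1 of the other 13 libraries they ran from 0% to 0.264%, the highest without WT DSS replicate 3. The KO against WT interaction gave 1 call without VAA DSS replicate 3, where 0.104% of all genes were called. The VAA against WT interaction gave 0 of 8 calls in edgeR, DESeq2 and limma, with 0 at an unadjusted *P* under 0.05 in edgeR, where 0% of all genes were called.

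Per kb of the longest annotated transcript, the order of the 8 genes changed between groups. In WT DSS colon *S100a9* (143.5 ± 32.9 CPM per kb, SD, n = 3) and *S100a8* (142.7 ± 31.0) led and did not differ beyond their spread, followed by *Retnlg* (37.6 ± 6.17). *Cxcr2* (9.77 ± 0.820), *Clec4e* (8.75 ± 2.27), *Clec4d* (6.48 ± 1.85) and *Csf3r* (6.25 ± 0.815) followed, and neighbours in this order overlapped. *Trem1* (3.52 ± 0.657) was lowest and lay below *Csf3r* in every library. In KO DSS colon *S100a9* (10.3 ± 3.07), *Cxcr2* (8.00 ± 1.47) and *S100a8* (6.46 ± 2.32) overlapped at the top of the order. *Csf3r* (2.21 ± 0.270) stood below them, and *Retnlg* (1.03 ± 0.107) was near *Clec4e* (1.12 ± 0.319). *Clec4d* (0.550 ± 0.0756) and *Trem1* (0.432 ± 0.0571) were lowest and overlapped. In untreated colon of each genotype *Cxcr2* was highest, at 8.62, 6.48 and 7.48 CPM per kb in WT, VAA and KO.

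Genes for neutrophil attractants, for receptors of attractants and for growth factors moved in the same direction as the 8 genes. This list and the lists that follow were chosen with earlier results of these data known. As with the 8, some listed genes passed the expression filter through their DSS libraries only. The list counts therefore describe the lists and do not test them. Of 14 listed genes for attractants, attractant receptors and growth factors, 11 passed the expression filter and were tested. Of those 11, 11 rose under DSS in WT, 11 in VAA and 5 in KO. The shares of all genes that rose were 14.1%, 10.9% and 5.59% in the same order. Under DSS, 10 of the 11 were lower in KO than in WT and 11 lower than in VAA, with list medians of -2.74 and -2.99 log2 units. Of all genes tested, 2.46% and 9.41% were lower. *Cxcl5*, a CXCR2 ligand, had 1084 to 2352 counts in WT DSS, 1401 to 3628 in VAA DSS and 239 to 372 in KO DSS libraries, a KO minus WT log2 difference of -2.34 ± 0.35. *Il1b*, the interleukin-1 beta gene, had 895 to 1625 counts in WT DSS and 137 to 183 in KO DSS libraries (-2.74 ± 0.35). *Cxcl3*, another CXCR2 ligand, differed by -2.35 ± 0.34 and *C5ar1*, the receptor for complement C5a, by -1.70 ± 0.28. Each of the 4 passed edgeR's test, and their KO DSS levels did not reach the lowest WT DSS library, as held for 19.5% of all genes tested.

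Other neutrophil genes did not all follow the 8. Of 11 tested granule genes, 9 rose under DSS in WT, 9 in VAA and 4 in KO, where 14.1%, 10.9% and 5.59% of all genes rose. Under DSS 6 were lower in KO than in WT (list median -1.50), where 2.46% of all genes were lower. Against VAA 8 were lower and 1 higher (list median -2.22), where 9.41% and 6.01% of all genes were. *Lcn2*, the iron-siderophore trap lipocalin 2, had 509 to 921 counts in WT DSS and 21 to 34 in KO DSS libraries (-4.61 ± 0.43), and *Itgam*, the CD11b integrin gene, differed by -1.50 ± 0.26. *Itgb2*, the shared integrin beta 2 gene, differed by -0.77 ± 0.29 without passing the test (edgeR adjusted *P* = 0.13). *Cd177*, a neutrophil surface protein gene, ran the other way, with 1347 to 2099 counts in WT DSS and 3088 to 4239 in KO DSS libraries, an edgeR adjusted *P* of 0.087 against WT and a rise of 1.48 ± 0.41 against VAA (edgeR adjusted *P* = 0.028).

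Of 16 tested genes of mature neutrophils, 13 rose in WT, 11 in VAA and 2 in KO under DSS. The shares of all genes that rose were 14.1%, 10.9% and 5.59% in the same order. In KO against WT under DSS 10 were lower and 1 higher (list median -2.43), where 2.46% and 3.21% of all genes were. The one that was higher, *Mxd1*, a MYC antagonist (0.67 ± 0.18), had 7660 to 12487 counts in untreated colon. Its untreated levels were 523.4 to 748.8 CPM in WT, 649.1 to 747.3 in VAA and 807.1 to 870.5 in KO. KO libraries thus lay above those of WT without DSS too, where edgeR called 0% of all genes. Under DSS, 11 of the 16 were lower and 0 higher in KO than in VAA, where 9.41% and 6.01% of all genes were. *Ly6g*, the surface marker that defines mouse neutrophils, had 721 to 1387 counts in untreated libraries, 1479 to 1862 in WT DSS, 2450 to 5124 in VAA DSS and 997 to 1395 in KO DSS. Its KO minus WT log2 difference was -0.44 ± 0.40 (edgeR adjusted *P* = 0.58), and its highest count lay in VAA DSS replicate 3. *Slfn4*, a Schlafen family gene, had 865 to 1617 counts untreated and a KO minus WT difference of 0.09 ± 0.35 under DSS (edgeR adjusted *P* = 0.92). Thus *Ly6g*, *Slfn4* and *Mxd1*, like *Cxcr2*, had at least 179 counts in every untreated library, beside 0 to 5 counts of *S100a8*.

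Partners and relatives of the 8 genes were read beside a share of 5.67% of all genes called between KO and WT under DSS, 3.21% higher and 2.46% lower. With 1 library left out the share called ran from 0.693% without WT DSS replicate 2 to 15.6% without VAA DSS replicate 3. Under DSS 14.1%, 10.9% and 5.59% of all genes rose in WT, VAA and KO. Of 6 genes for calprotectin receptors and their signalling, 2 rose under DSS in WT, 3 in VAA and 1 in KO. Lower in KO than in VAA under DSS were 3 of the 6, where 9.41% of all genes were lower. In KO against WT 1 was lower, the adaptor gene *Myd88* (-0.52 ± 0.14, edgeR adjusted *P* = 0.044). *Tlr4*, a receptor for calprotectin, differed by -0.39 ± 0.19 and its co-receptor *Cd14* by -0.65 ± 0.20, neither passing the test. Of 9 adaptor and signalling genes of TREM-1 and Mincle, 6 rose in WT, 6 in VAA and 3 in KO. Under DSS 2 of the 9 were lower in KO than in VAA, and 1 was lower in KO than in WT. That one was *Tyrobp*, the DAP12 adaptor gene, named after its values were seen (-0.98 ± 0.25, edgeR adjusted *P* = 0.042). *Pglyrp1*, a peptidoglycan-binding ligand of TREM-1, rose by 1.64 ± 0.18 in WT, 1.58 ± 0.18 in VAA and 1.66 ± 0.18 in KO. The kinase gene *Syk* rose by 1.13 ± 0.16, 0.99 ± 0.16 and 0.93 ± 0.16 in the same order.

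Of 11 other S100 genes tested, 3 rose and 2 fell under DSS in WT, where 14.1% of all genes rose and 12.5% fell. In KO against WT under DSS 1 was higher and 1 lower, where 3.21% and 2.46% of all genes were. Those were *S100a1* (0.46 ± 0.12) and *S100a11* (-0.93 ± 0.16), both named after their values were seen. The epithelial S100 genes *S100a14* and *S100a16* rose in each genotype, by 0.85 ± 0.23 and 0.91 ± 0.12 in KO. Of the resistin family, *Retnlb*, the goblet cell relative of *Retnlg*, had 335 to 929 counts in WT DSS, 482 to 885 in VAA DSS and 480 to 797 in KO DSS libraries, a KO minus WT difference of 0.30 ± 0.33 (edgeR adjusted *P* = 0.65). Of 4 other tested genes of the *Clec4* cluster and 4 other tested Trem family genes, 0 were called in KO against WT. Their differences included -0.76 ± 0.25 for *Clec4a1* (edgeR adjusted *P* = 0.093) and -0.33 ± 0.33 for *Treml2* (edgeR adjusted *P* = 0.61).

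Markers of other cell types moved with the same groups in part, and their part in the results above was not tested. Summed over 13 monocyte and macrophage markers, levels were 188 to 306 CPM in untreated, 295 to 512 in WT DSS, 408 to 581 in VAA DSS and 236 to 321 in KO DSS libraries, with none of the 13 at 0 in any group. Of those 13, 1 was lower in KO than in WT under DSS and 5 lower than in VAA, where 2.46% and 9.41% of all genes were lower. Summed over 9 columnar epithelium markers, levels were 9710 to 10400 CPM in WT DSS, 8810 to 10800 in VAA DSS and 12400 to 14700 in KO DSS libraries, and 2 of 9 were higher in KO than in WT, where 3.21% of all genes were higher, and 5 of 9 higher than in VAA, where 6.01% were. Smooth muscle markers summed to 515 to 843 CPM in WT DSS, 606 to 2160 in VAA DSS and 529 to 1740 in KO DSS beside 3400 to 6090 untreated. Under DSS 6 of 6 fell in WT, 6 of 6 in VAA and 4 of 6 in KO, where 12.5%, 9.54% and 5.06% of all genes fell. Between genotypes under DSS, 0 of the 6 were called in KO against WT or VAA, where 5.67% and 15.4% of all genes were called. With 1 library left out the shares of all genes ran from 0.241% to 6.87% for higher in KO than in WT and 3.48% to 8.84% for higher than in VAA. For the fall under DSS they ran from 6.12% to 17.2% in WT, 4.97% to 12.8% in VAA and 1.23% to 10.8% in KO. Squamous epithelium markers, whose cells also make calprotectin, summed to 6.31 to 15.9 CPM in WT DSS, 11 to 29.3 in VAA DSS and 5.57 to 8.25 in KO DSS libraries. Of 7 tested, 0 were called in KO against WT, where 5.67% of all genes were called. Lower in KO than in VAA were 2 of the 7, where 9.41% of all genes were lower. *Sprr3* was at 0 in each of the 6 groups, and *Krt1* was at 0 in WT and KO DSS. Of 8 eosinophil markers, 3 were tested, *Ear1* was at 0 in each group, and the sums were 12.3 to 21.0 CPM in WT DSS, 15.8 to 31.5 in VAA DSS and 10.2 to 12.9 in KO DSS. Mast cell, T and B cell and red cell or platelet markers had 0 calls between KO and WT under DSS, where 5.67% of all genes were called.

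**Figure D5:**
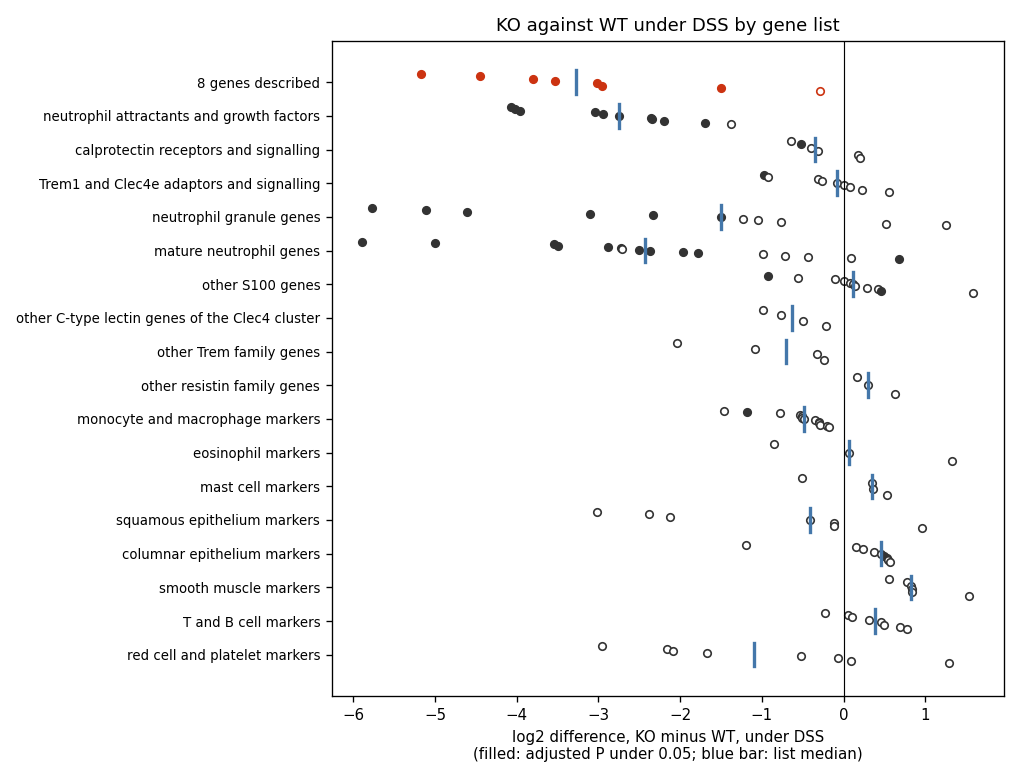
Log2 difference between KO and WT under DSS for every tested gene of each list; filled points passed an adjusted *P* of 0.05 and blue bars are list medians. The 8 genes described have a median of -3.28, the attractant list -2.74, the granule list -1.50 and the mature neutrophil list -2.43.

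The genes nearest in profile to each of the 8 were found by the root mean square difference of log2 CPM over the 15 libraries, each profile centred on its mean. *S100a8* was nearest to *S100a9* (0.424), then to *Myot* (0.795), which encodes a muscle Z-disc protein, *Mmp8* (0.835), the neutrophil collagenase, and *Reg3b* (0.840), an epithelial antimicrobial lectin. *Myot* (0.660), *Lrg1* (0.751), a secreted leucine-rich glycoprotein gene, and *Reg3b* (0.817) were nearest to *S100a9*. *Retnlg* was nearest to *Mmp8* (0.455), which had 0 counts in each untreated library, 184 to 328 in WT DSS, 125 to 381 in VAA DSS and 2 to 11 in KO DSS. *Myot* likewise had 0 counts in each untreated library, and had 185 to 324 in WT DSS, 254 to 448 in VAA DSS and 28 to 33 in KO DSS.

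*Clec4d* was nearest to the macrophage scavenger receptor gene *Marco* (0.442), *Serpina3f* (0.443) and *Saa3* (0.481), a serum amyloid gene. *Clec4e* was nearest to *Gm5483* (0.524), *Cxcl3* (0.524) and the histidine decarboxylase gene *Hdc* (0.535). *Csf3r* was nearest to the urokinase receptor gene *Plaur* (0.396), the Fc receptor gene *Fcgr4* (0.402) and *Dhrs9* (0.403). *Trem1* was nearest to oncostatin M, *Osm* (0.699), *Hdc* (0.708) and the gelatinase gene *Mmp9* (0.735). The neighbours of *Cxcr2*, which itself varied little, were *Tulp3* (0.154), *Lrrc20* (0.164) and *Sgk3* (0.174). *Tulp3* had 208 to 452 counts untreated and 300 to 519 under DSS. These distances describe the 15 libraries, which share the treatment and genotype contrasts.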

How the data were processed

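Total RNA libraries of mouse colon, 15 in 6 groups, were grouped by their labels. One deposited table holds estimated counts by gene symbol, with kallisto 0.46 and mm10 named per the submitters' processing notes. The sources used here do not give the annotation or strand setting. These deposited counts were whole numbers, so rounding changed none. A second table from the authors holds log2 CPM of 17531 genes, which recomputation from the counts with a prior count of 2 matched within 0.018. The files held 0 columns of other samples.

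In R 4.3.3, edgeR 4.0.16 kept 17477 genes by its expression filter, scaled libraries by TMM (factors 0.918 to 1.08) and fitted a quasi-likelihood model with 1 mean per group (9 residual degrees of freedom). The 12 comparisons were contrasts of these means, with Benjamini-Hochberg adjustment over the genes tested and a threshold of 0.05. The SE of a log2 difference is its size divided by the square root of the quasi-likelihood F statistic. It is approximate and can be smaller than counting error where counts are few. CPM is counts per 1 M of the scaled library total. Groups with 1 to 3 counts are given as ratios with exact 95% counting intervals. Lengths and positions are from GENCODE on mm10 and promoters from RefSeq, which held each of the 8 genes. Protein sequences were not used here.

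Named genes are the 8, *Tert*, the 4 members of each list with the highest mean log2 CPM, summed levels of other cell types' markers, and the 3 nearest genes in profile to each of the 8. One gene that the rule names is not reported here. The 8 genes and the lists were chosen with earlier results of these data known. Alternatives were DESeq2 1.42.0 size factors, the DESeq2 test, no expression filter, limma 3.58.1 on the deposited log2 values, a replicate block, a sex covariate, a fit of the compared groups alone, and leaving out libraries one by one. The script was tested on simulated data over 17159 genes. For KO against WT under DSS it recovered 18 of 40 genes changed 2-fold and 32 of 40 changed 4-fold, with 6 unchanged genes called.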

Additional observations from a re-analysis of the deposited data

How the results depend on the processing

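The counts of the 8 genes called in WT and VAA under DSS, and in KO against WT and against VAA under DSS, stayed within 1.5 times of the reported ones under each alternative run. Leaving out 1 library gave 7 to 7 calls for DSS in WT, 7 to 8 in VAA and 3 to 5 in KO, 6 to 7 for KO against WT and 7 to 7 for KO against VAA under DSS, 0 to 1 for the KO against WT interaction, 0 to 6 for the KO against VAA interaction, and 0 to 0 for the other comparisons. For DSS in KO the count was 3 with sex as a covariate and 3 with only the groups compared, where *Retnlg* and *Clec4d* did not pass the smaller fit's filter. The shares of all genes that rose in these 2 fits were 4.02% and 8.3%. The KO against WT interaction had 5 calls by DESeq2, 3 by limma and 1 with only the groups compared. The shares of all genes called were 0.79%, 0.0513% and 0.181%. The KO against VAA interaction had 6 calls by DESeq2, 6 by limma and 3 without the expression filter. The shares of all genes called were 3.08%, 0.656% and 0.437%. The sign turned for *Clec4e* in KO (limma -0.093, sex -0.33, and -0.27 to 0.45 with 1 library left out, at -0.20 without KO DSS replicate 2). It turned for *Cxcr2* in KO (limma -0.011, sex -0.055, and -0.22 to 0.51 with 1 library left out, at -0.056 without KO DSS replicate 1) and in WT (sex -0.014). The cause was not tested. With the replicate number as a block the counts were 7, 8 and 5 for DSS in WT, VAA and KO, 7 and 7 for KO against WT and VAA under DSS, and 0 for the other comparisons, so no count changed. With the block, 15.9%, 10.7% and 6.92% of all genes rose under DSS in WT, VAA and KO. Under DSS 2.77% and 9.02% were lower in KO than in WT and VAA, and 0% were called in the other comparisons. The replicate numbers share only a number in the labels. Residuals of the 33 same-numbered pairs correlated at -0.16 to 0.31 (8 above 0.1), and for 7 of the 15 libraries the best match had the same number. With only the groups compared, 5 of the 8 genes gave no value in each untreated pair. Depth limits the untreated levels of *S100a8*, *S100a9*, *Retnlg* and *Clec4d*, at 0 to 5 counts a library.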
